A study of Homo sapiens with 6 samples.

Results

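The transcripts of 49 interferon-stimulated genes and apolipoprotein L (APOL) family members were followed in SW620 cells in which the dyskerin gene DKC1 had been silenced. The members were taken by symbol from a count table of 19672 genes, and all 49 had an entry there. SW620 is an established human colorectal cancer line. C6 and C3 are DKC1 knockdown lines made with a lentiviral short-hairpin RNA (shRNA) against DKC1, and the scramble line carries a non-targeting shRNA. Each of the 3 groups had 2 libraries, called biological replicates in their titles, and all cells were kept under puromycin at 1 µg/mL with no other treatment. The design text names a pair of hairpins, but the sources used here do not say which of them C6 and C3 carry, or whether either line is a single clone. None of the cells was treated with interferon, so every level below is one of unstimulated cells.

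Interferons are secreted proteins that cells release when their sensors find viral or misplaced nucleic acid. Type I and type III interferons act through receptor-bound JAK kinases, which lead to the complex ISGF3, with STAT2 and IRF9 among its subunits. ISGF3 binds a promoter sequence called the interferon-stimulated response element (ISRE). Interferon-γ acts mainly through a different promoter element, the gamma-activated sequence (GAS). The genes switched on this way include further sensors, enzymes that attach the ubiquitin-like protein ISG15 to other proteins, and effectors that bind, cut or modify viral RNA or block viral entry. Many of them keep a low basal level in the absence of added interferon. The APOL genes form a cluster on chromosome 22, and several of them respond to interferon.

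DKC1 encodes dyskerin, which converts uridine to pseudouridine in ribosomal and other RNAs under the guidance of H/ACA small nucleolar RNAs. DKC1 stood at 70.3 and 67.1 CPM (counts scaled to a common library size after TMM adjustment) in C6, 144 and 149 CPM in C3, and 320 and 315 CPM in scramble. Its log2 fold change was −2.21 in C6 and −1.11 in C3, so C6 is the line with the deeper knockdown. C3 replicate 1 has a genotype tag that reads Control. Its DKC1 level lay beside that of C3 replicate 2. The counts of members called in C3 are also given without C3 replicate 1, but those of patterns over both lines and of library overlap are not. Library totals ran between 26077966 and 31021000 counts, at which 3 counts equal between 0.0968 and 0.114 CPM. Replicates differed by more than sampling noise (chi-square per degree of freedom between 6.08 and 8.3), and since the sources do not say that they were separate cultures, p-values here measure only the spread between libraries. The same batch tag stands on all 6 libraries. Of 14 colon epithelial markers, 13 had counts in at least 1 library and CDX1 was at 0 in all. Their summed level was 9165 and 9066 CPM in C6, 6984 and 7174 CPM in C3, and 9211 and 8564 CPM in scramble. The immune markers PTPRC, CD3E and MS4A1 were at 0 in every library. The 17 immune markers together summed to 37.6 and 44.9 CPM in C6, 13.5 and 13 CPM in C3, and 19.5 and 18.8 CPM in scramble, most of it from CD68, a lysosomal protein that macrophages carry in large amounts. The 13 fibroblast and endothelial markers summed to 24.6 and 25.3 CPM in C6, 34.1 and 38.4 CPM in C3, and 30.9 and 28.9 CPM in scramble, with COL1A2, COL3A1, DCN and CDH5 at 0. In bulk RNA, fewer cells of a type and less RNA per cell cannot be told apart.

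The members were searched for the response elements in RefSeq promoters of GRCh38.p14, available for 36 of the 49 genes. These run from 250 bases before to 50 bases after an annotated start. The ISRE core GAAANNGAAA, on either strand, was found in 25 of these promoters (69.4%), against 3.57% of 35116 promoters in the table. The longer form GAAANNGAAACT, which contains the core, was found in 15 (41.7%, against 0.273% of all promoters), and the GAS pattern TTCNNNGAA in 10 (27.8%, against 7.66%). Because the members were listed as interferon-stimulated or APOL genes, high shares follow from the list and are no result of these libraries. Only the first listed promoter of each member was searched, while the background counts every promoter entry. Windows of 5 members are printed here, 5′ to 3′ on the strand of the gene, because IFITM3 and ISG15 moved the same way in both knockdown lines, while IFIH1, ISG20 and SAMD9 moved in opposite ways. The last 3 were chosen after their values were seen. Capitals mark every match to the ISRE core on either strand.
IFITM3 promoter, chr11:320811-321110, minus strand: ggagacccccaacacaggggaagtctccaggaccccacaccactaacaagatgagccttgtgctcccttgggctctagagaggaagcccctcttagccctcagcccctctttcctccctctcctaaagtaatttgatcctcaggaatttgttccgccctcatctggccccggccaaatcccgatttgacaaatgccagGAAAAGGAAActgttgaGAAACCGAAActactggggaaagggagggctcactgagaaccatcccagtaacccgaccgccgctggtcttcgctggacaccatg
ISG15 promoter, chr1:1013247-1013546, plus strand: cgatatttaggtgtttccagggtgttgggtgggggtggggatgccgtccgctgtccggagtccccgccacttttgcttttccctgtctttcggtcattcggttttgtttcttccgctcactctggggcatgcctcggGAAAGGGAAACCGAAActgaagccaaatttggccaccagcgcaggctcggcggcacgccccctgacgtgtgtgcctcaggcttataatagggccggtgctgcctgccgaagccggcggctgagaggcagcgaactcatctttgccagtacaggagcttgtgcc
IFIH1 promoter, chr2:162318635-162318934, minus strand: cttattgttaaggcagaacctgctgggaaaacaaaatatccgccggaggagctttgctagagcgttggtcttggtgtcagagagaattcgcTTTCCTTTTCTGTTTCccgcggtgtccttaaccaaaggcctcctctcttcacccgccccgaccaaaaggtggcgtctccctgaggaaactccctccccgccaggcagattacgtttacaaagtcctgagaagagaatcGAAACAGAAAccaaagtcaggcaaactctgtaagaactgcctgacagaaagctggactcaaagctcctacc
ISG20 promoter, chr15:88638766-88639065, plus strand: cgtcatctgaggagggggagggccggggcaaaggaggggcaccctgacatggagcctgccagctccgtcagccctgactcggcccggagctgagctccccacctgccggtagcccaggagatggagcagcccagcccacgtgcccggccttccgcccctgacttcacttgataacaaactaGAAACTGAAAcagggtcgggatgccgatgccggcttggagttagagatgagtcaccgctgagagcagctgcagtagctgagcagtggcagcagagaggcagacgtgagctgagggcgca
SAMD9 promoter, chr7:93117930-93118229, minus strand: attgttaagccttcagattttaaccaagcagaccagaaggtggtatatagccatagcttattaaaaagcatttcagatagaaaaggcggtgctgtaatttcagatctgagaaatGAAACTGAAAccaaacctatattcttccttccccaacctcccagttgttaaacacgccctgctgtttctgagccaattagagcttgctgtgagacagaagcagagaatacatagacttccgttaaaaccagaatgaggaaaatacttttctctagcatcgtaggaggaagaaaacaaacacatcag
Each of the 5 windows holds at least 1 ISRE core. IFITM3 has a pair of separate cores ending 43 and 26 bases before the start, both of the longer form. The cores of ISG15 overlap each other. IFIH1 has 3 cores, of which an overlapping pair lies on the opposite strand. ISG20 and SAMD9 have 1 core each, on the strand of the gene. The ISG20 window lies within the annotated span of the gene (chr15:88635632-88656483), around a start downstream of its first, and other starts were not searched. Cores occurred in members of each pattern described below: in all 3 matched members that were lower in C3 and higher in C6, in 5 of 6 that were lower in C3 alone, in 3 of 4 that were higher in C6 alone, and in 1 of 4 that were lower in both lines. Among matched members called in neither line, 6 of 8 had a core.

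Across the members the knockdown lines went different ways. In C6, 14 members were higher and 11 lower than in scramble. In C3, 3 members were higher and 19 lower. These calls have an adjusted p under 0.05 by edgeR's quasi-likelihood test, fitted over the 13299 genes that passed the low-count filter and adjusted over all of them by Benjamini-Hochberg. The filter kept 43 of the 49 members. For C6, 46.7% of all tested genes were called (23.8% higher and 22.8% lower), against 58.1% of the tested members (32.6% higher and 25.6% lower). For C3, 24.3% of all tested genes were called (12.4% higher and 11.9% lower), against 51.2% of the tested members (6.98% higher and 44.2% lower). The median log2 fold change of the tested members was −0.06 in C6, against −0.01 over all tested genes, and −0.48 in C3, against 0.00 over all tested genes. The members' share of lower calls in C3 was thus well above that of all genes, while their shares in C6 were closer to it. The members were chosen with earlier results of these data known, so these shares are no independent test. Without C3 replicate 1, 2 members were higher and 15 lower in C3. Without C3 replicate 2, only 1 was higher there, and without scramble replicate 1, 7 were lower in C6. With upper-quartile scaling, 13 members were higher and 14 lower in C6, where 19.7% of all tested genes were then higher and 27.7% lower. In C3, 2 members were then higher and 21 lower, against 9.9% and 13.8% of all tested genes. DESeq2 called 12 members higher and 7 lower in C6, and 2 higher and 14 lower in C3.

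**Figure D1:**
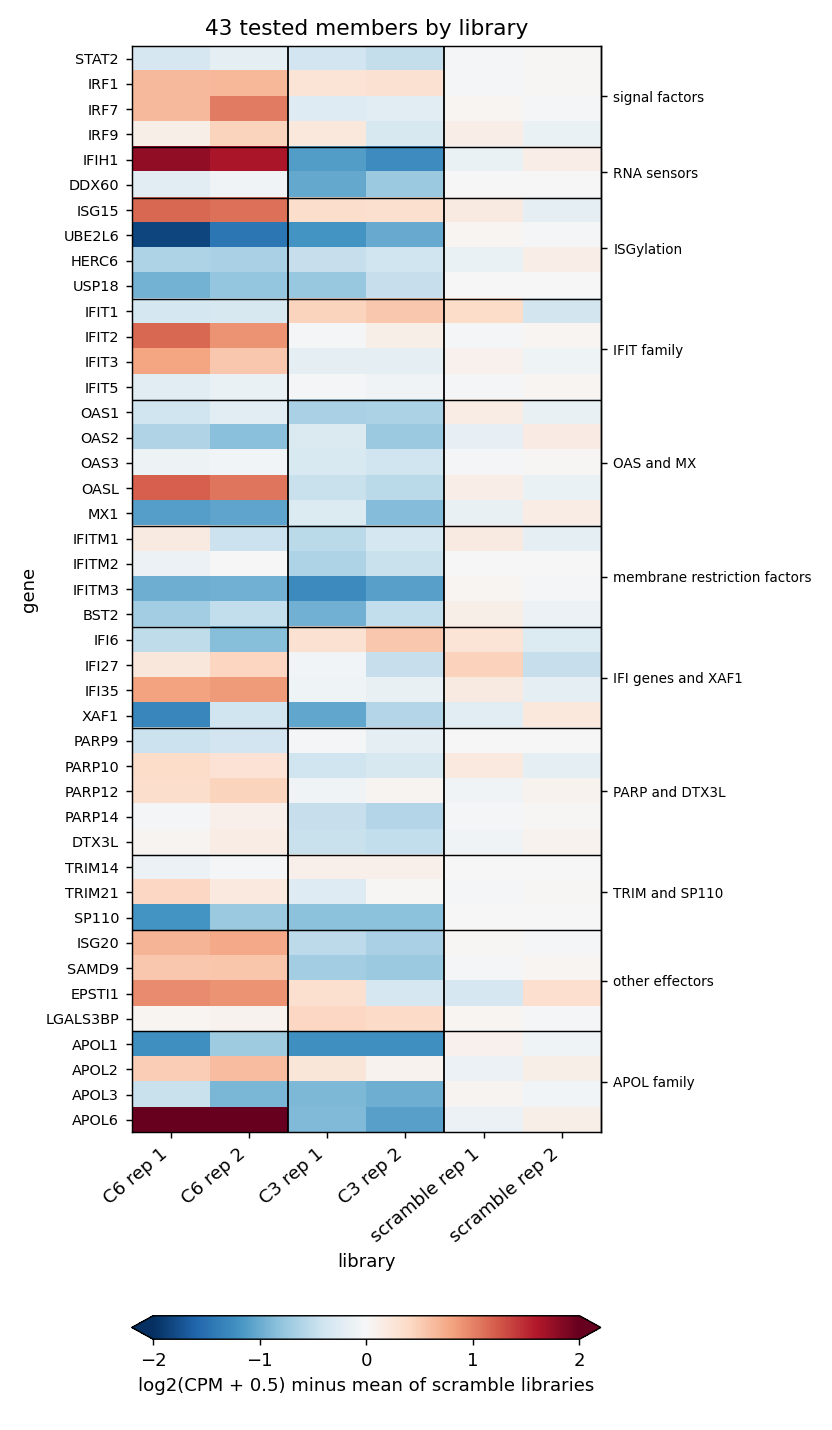
Levels of the 43 tested members (rows, grouped by role) in each library (columns), as log2(CPM + 0.5) minus the mean of the scramble libraries, with red for higher and blue for lower and the colour scale ending at −2 and 2. IFIH1 and APOL6 are dark red in both C6 libraries and blue in both C3 libraries, while IFITM3, UBE2L6 and SP110 are blue in all 4 knockdown libraries.

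Read against both lines at once, 6 members were lower in both (STAT2, UBE2L6, USP18, IFITM3, SP110 and APOL1), where 4.59% of all tested genes were, and 2 were higher in both (IRF1 and ISG15), where 5.44% were. Another 4 members were higher in C6 and lower in C3 (IFIH1, ISG20, SAMD9 and APOL6), a pattern of 2.62% of all tested genes. By edgeR or DESeq2, 0 were lower in C6 and higher in C3, a pattern of 2.31% of all tested genes by edgeR, and at an unadjusted p under 0.05 IFI6 alone had it. A further 8 were called in C6 alone as higher and 5 as lower, against 15.8% and 15.9% of all tested genes. In C3 alone 9 were lower and 1 higher, against 4.63% and 4.68%, and 8 were called in neither, against 44%. Of the members with the same sign in both lines, UBE2L6, IFITM3 and SP110 kept both calls under every alternative processing. STAT2, USP18, APOL1, IRF1 and ISG15 did not. Of those with opposite signs, only SAMD9 lost a call. All 4 knockdown libraries lay below both scramble libraries for 17 of the 43 tested members, against 15.2% of all tested genes, and above both for 3, against 15%. Line by line, the C6 libraries lay above both scramble libraries for 17 members and below both for 19 (36.1% and 36.8% of all tested genes). The C3 libraries lay above for 6 and below for 29 (31.8% and 31.1%). The comparisons of C6 and of C3 share the scramble libraries.

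**Figure D2:**
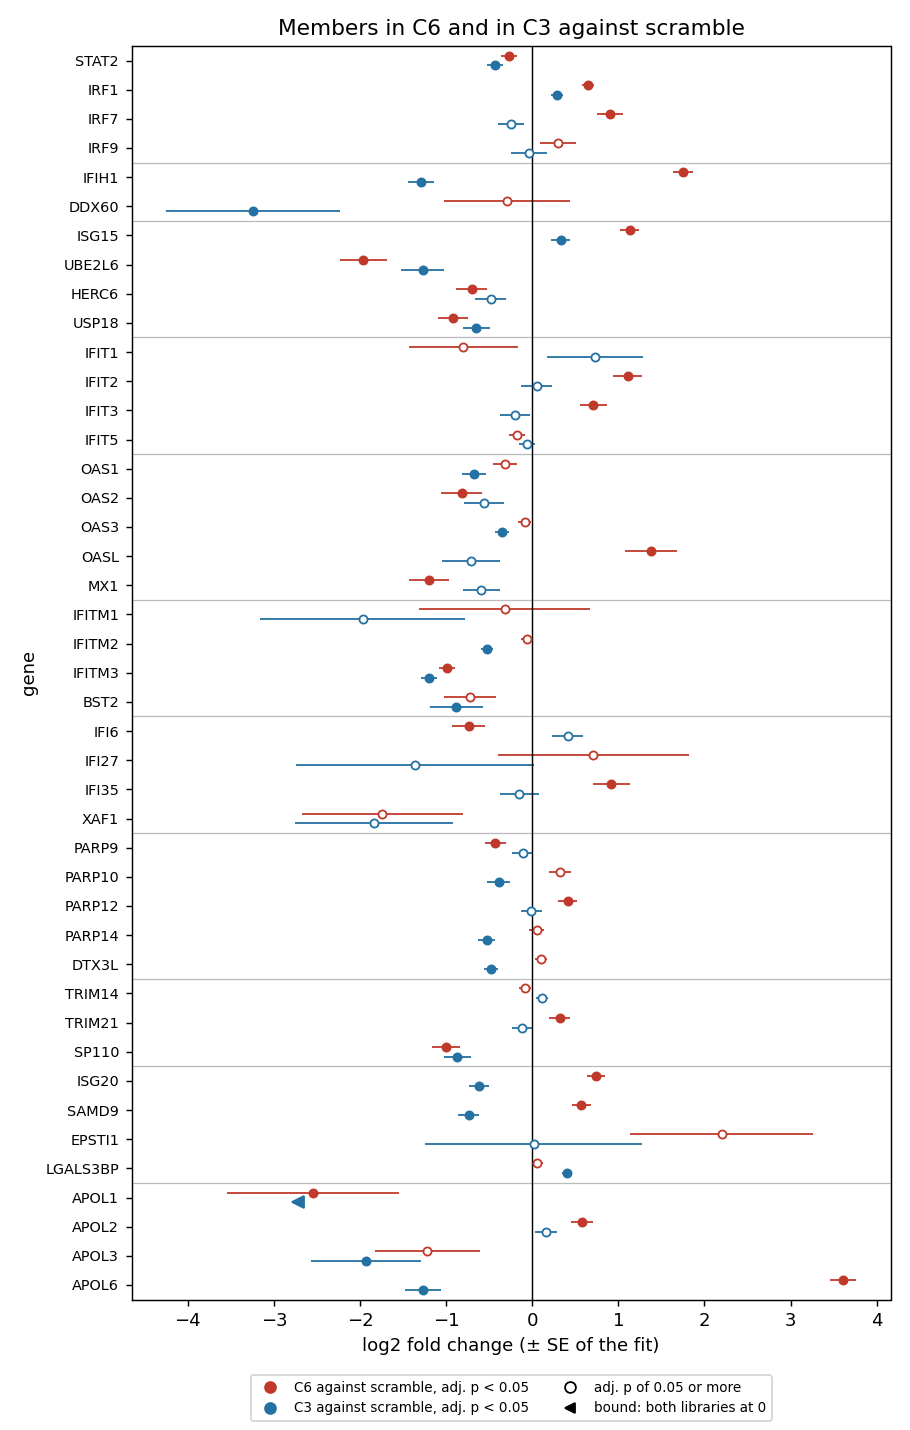
Log2 fold change against scramble (x axis, with SE of the fit) of each tested member in C6 (red) and C3 (blue), filled where the adjusted p is under 0.05. The arrowhead for APOL1 in C3 marks a log2 fall of at least 2.72, because both C3 libraries had 0 counts.

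Among the factors that carry the interferon signal, IRF1 and IRF7 stood highest in C6, and STAT2 was lower in both lines. IRF1, a transcription factor that binds ISRE-like sequences and is itself induced by interferon-γ, had 78.3 and 79.2 CPM in C6, 60.5 and 62.1 CPM in C3, and 49.4 and 50.6 CPM in scramble. The 3 groups did not overlap, with C6 highest and scramble lowest. IRF1 rose by a log2 fold change of 0.65 ± 0.07 (SE) in C6 (adjusted p = 2.0e-06) and 0.29 ± 0.07 in C3 (adjusted p = 0.00585). IRF7, the master factor of type I interferon induction, had 13.2 and 17.5 CPM in C6, 6.81 and 7.04 CPM in C3, and 8.43 and 8.04 CPM in scramble. Both C6 libraries lay above the other 4, and both C3 libraries lay below scramble. IRF7 rose by 0.90 ± 0.15 in C6 (adjusted p = 1.4e-04), and its log2 fold change in C3 was −0.25 ± 0.15 (adjusted p = 0.27). STAT2, the ISGF3 subunit with the transactivation domain, had 23.2 and 25.7 CPM in C6, 22.6 and 21.2 CPM in C3, and 29.1 and 30 CPM in scramble. All 4 knockdown libraries lay below scramble, with log2 fold changes of −0.27 ± 0.09 in C6 (adjusted p = 0.0263) and −0.43 ± 0.09 in C3 (adjusted p = 0.00326). IRF9, the DNA-binding subunit of ISGF3, was called in neither line (0.30 ± 0.21 in C6 and −0.04 ± 0.21 in C3), and its libraries overlapped between groups. Every 100-base stretch of its transcript (100%) also occurs in the annotated transcript AL136295.5, so reads of the pair cannot be told apart by sequence. The STAT2 call in C6 was lost without C6 replicate 1 or either scramble library, with DESeq2, and with the median shift of chromosomal neighbours removed. That of IRF1 in C3 was lost without C3 replicate 2 and with the neighbours' shift removed.

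The sensors of double-stranded RNA held one of the largest contrasts between the lines. IFIH1 (chr2:162267074-162318684), which encodes MDA5, a cytosolic helicase that detects long double-stranded RNA, had 33.5 and 30.2 CPM in C6, 4.07 and 3.66 CPM in C3, and 8.58 and 10.4 CPM in scramble. The 3 groups were widely separated, with C6 above scramble and C3 below it. IFIH1 rose by a log2 fold change of 1.75 ± 0.12 in C6 (adjusted p = 2.7e-08) and fell by 1.29 ± 0.15 in C3 (adjusted p = 1.1e-05). The median log2 fold change in C6 of the genes that neighbour it on the chromosome was −0.49, opposite in sign to that of IFIH1. DDX60, a helicase linked to RNA sensing, was near the limit of detection: it had 0.38 and 0.467 CPM in C6, 0 and 0.107 CPM in C3, and 0.52 and 0.521 CPM in scramble. That is 23 counts over the C6 libraries, 3 over those of C3 and 28 over those of scramble. The C3 to scramble ratio was 0.0975 with a 95% interval of 0.019 to 0.316, which covers counting error only. DDX60 was called lower in C3 (adjusted p = 0.0291). The call was lost without C3 replicate 1, either scramble library or either C6 library. It was also lost with DESeq2, with no low-count filter and with the neighbours' shift removed. The median of the neighbours of DDX60 was −0.47 in both lines. DHX58, which encodes the regulatory helicase LGP2, had 5 and 2 counts in C6 and 0 in the other 4 libraries, and was too low to be tested.

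The ISG15 conjugation system moved apart within itself: the modifier rose and the genes for its conjugating and removing enzymes fell. ISG15 (chr1:1013497-1014540), the ubiquitin-like modifier, had 45.2 and 43.5 CPM in C6, 25.8 and 25.2 CPM in C3, and 22.7 and 17.7 CPM in scramble. C6 was far above the other groups, and C3 lay just above the higher scramble library. ISG15 rose by a log2 fold change of 1.13 ± 0.11 in C6 (adjusted p = 6.1e-07) and 0.33 ± 0.11 in C3 (adjusted p = 0.0351). The C3 call of ISG15 was lost without scramble replicate 2, either C3 library or either C6 library (adjusted p between 0.0523 and 0.33), with upper-quartile scaling (0.0613) and with DESeq2 (0.106). UBE2L6, the E2 conjugating enzyme of ISG15, had 1.06 and 1.55 CPM in C6, 1.94 and 2.28 CPM in C3, and 5.28 and 4.92 CPM in scramble. Every knockdown library was under the scramble level, and C6 was the lowest group. UBE2L6 fell by 1.96 ± 0.27 in C6 (adjusted p = 2.9e-05) and by 1.27 ± 0.25 in C3 (adjusted p = 0.00171).

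USP18, the protease that removes ISG15 and also restrains signalling at the type I interferon receptor, had 4.67 and 5.36 CPM in C6, 5.42 and 6.72 CPM in C3, and 9.58 and 9.38 CPM in scramble. All knockdown libraries lay below scramble, while C6 and C3 were close to each other. USP18 fell by 0.92 ± 0.17 in C6 (adjusted p = 3.6e-04) and by 0.65 ± 0.16 in C3 (adjusted p = 0.00874). The C3 call was lost without C3 replicate 1 or either scramble library, and with DESeq2. Of the 100-base stretches in the USP18 transcript, 15.4% also occur in USP41, so reads of the pair could be mixed. HERC6, a HECT-type ligase related to the human ISG15 ligase HERC5, fell in C6 by 0.70 ± 0.18 (adjusted p = 0.00556, and 0.0698 without scramble replicate 2), and its log2 fold change in C3 was −0.48 ± 0.18 (adjusted p = 0.066). HERC5 itself had 2 counts in C6 replicate 1 and none elsewhere, so the main ligase of the system was not measurable at this depth.

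**Figure D3:**
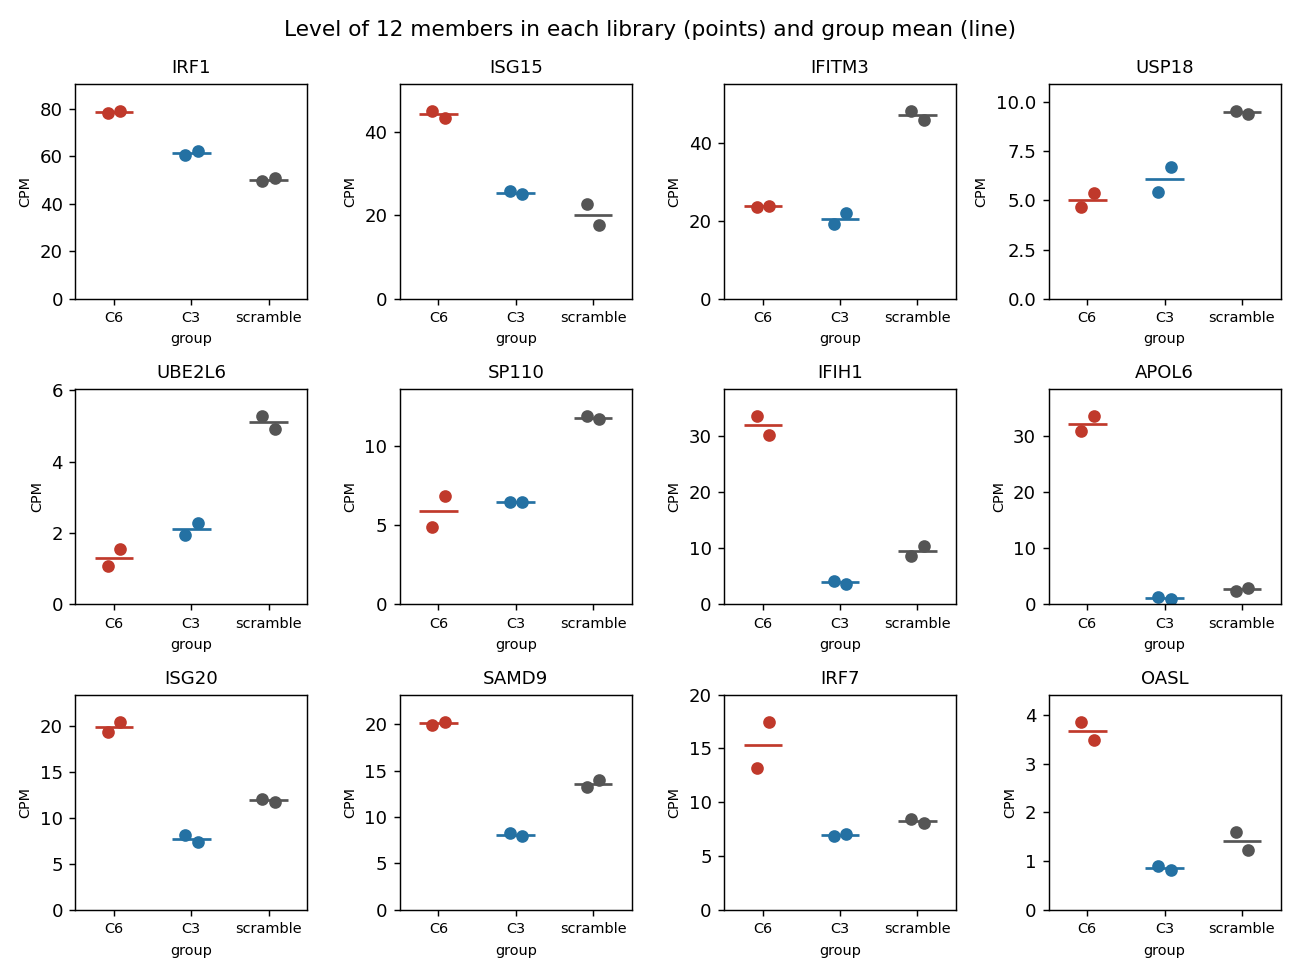
CPM of 12 members in each library (points) with the group mean (line), each panel starting at 0. In IFIH1, APOL6, ISG20 and SAMD9 the C6 points sit above scramble and the C3 points below, while in IFITM3, USP18, UBE2L6 and SP110 both knockdown lines sit below scramble.

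The IFIT genes, some of whose proteins bind viral RNA lacking the host cap marks, lie together on chromosome 10 and split by line. IFIT2 had 10.1 and 8.45 CPM in C6, 4.23 and 4.7 CPM in C3, and 4.16 and 4.43 CPM in scramble. Only the C6 libraries stood apart, while those of C3 overlapped scramble. IFIT2 rose in C6 by 1.11 ± 0.17 (adjusted p = 8.9e-05), and IFIT3 rose there by 0.71 ± 0.16 (adjusted p = 0.0019). IFIT5 was called in neither line, at −0.18 ± 0.09 in C6 and −0.06 ± 0.09 in C3. IFIT1 was low, with 0.342 and 0.36 CPM in C6, 0.968 and 1.07 CPM in C3, and 0.892 and 0.335 CPM in scramble. Its scramble libraries spanned most of the range of the other groups, and it was called in neither line. In C3 the adjusted p of the 4 genes ran from 0.385 to 0.868.

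The 2′,5′-oligoadenylate synthetases make the second messenger that activates RNase L, and OAS1, OAS2 and OAS3 lie side by side on chromosome 12, where none of the 3 was higher in a knockdown line. OAS1 fell in C3 by 0.68 ± 0.14 (adjusted p = 0.00209) and stood at −0.32 ± 0.14 in C6 (adjusted p = 0.0701). OAS3 fell in C3 by 0.35 ± 0.08 (adjusted p = 0.00643) and stood at −0.09 ± 0.08 in C6. OAS2 fell in C6 by 0.82 ± 0.24 (adjusted p = 0.011) and stood at −0.56 ± 0.23 in C3 (adjusted p = 0.0979). OASL, a relative without synthetase activity that lies elsewhere on the chromosome, went the other way. It had 3.87 and 3.49 CPM in C6, 0.904 and 0.818 CPM in C3, and 1.6 and 1.23 CPM in scramble. C6 was highest and C3 lowest, with no overlap. OASL rose in C6 by 1.38 ± 0.30 (adjusted p = 0.00162), and its log2 fold change in C3 was −0.71 ± 0.34 (adjusted p = 0.145). MX1, a dynamin-like GTPase that blocks viral ribonucleoproteins, had 3 and 3.09 CPM in C6, 5.71 and 3.59 CPM in C3, and 6.28 and 7.75 CPM in scramble. All knockdown libraries lay below scramble, C6 most of all. MX1 fell in C6 by 1.20 ± 0.23 (adjusted p = 5.5e-04) and stood at −0.59 ± 0.22 in C3 (adjusted p = 0.0639). The OAS3 call in C3 was lost without C3 replicate 2 or scramble replicate 2. That of OAS2 in C6 was lost without C6 replicate 2 or scramble replicate 2, and with DESeq2.

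The IFITM proteins sit in membranes and hinder the fusion of enveloped viruses, and their genes are neighbours at the end of chromosome 11. IFITM3 (chr11:319676-320860), whose promoter with a pair of ISRE cores is printed above, had 23.6 and 23.9 CPM in C6, 19.1 and 22 CPM in C3, and 48.3 and 45.8 CPM in scramble. Both knockdown lines stood at about the same level, far under scramble. IFITM3 fell by 0.99 ± 0.09 in C6 (adjusted p = 5.7e-07) and by 1.20 ± 0.09 in C3 (adjusted p = 2.5e-07). Among the members it was the only one also called when the 4 knockdown libraries were fitted as 1 group (adjusted p = 0.0295). The spread between the lines enters the error of that fit only in part, because libraries of the same line count as separate replicates. IFITM2 had 89.7 and 96.5 CPM in C6, 63.4 and 71.3 CPM in C3, and 98.2 and 96.1 CPM in scramble. C6 overlapped scramble and C3 lay below both. IFITM2 fell in C3 by 0.53 ± 0.07 (adjusted p = 8.3e-05), and its log2 fold change in C6 was −0.06 ± 0.07.

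Per kilobase of transcript, IFITM2 and LGALS3BP were the most abundant members in scramble, at 147 and 120 CPM per kb. IFITM3 had 58.2 and ISG15 31.7 CPM per kb there. IFITM1 was almost absent, at 0.38 and 0.0719 CPM in C6, 0.0323 and 0.107 CPM in C3, and 0.371 and 0.186 CPM in scramble, and it was called in neither line. IFITM1 shares 34.9% of its 100-base stretches with annotated IFITM2 transcripts, and IFITM3 shares 5.92% of its own with IFITM1, so a few reads could be misassigned. The annotation also gives IFITM1 and IFITM2 351 exonic bases in common on the same strand. With 1 to 10 counts per library, the IFITM1 level could be made up largely or wholly of such reads. This was not tested. BST2, which encodes tetherin and holds budding virions at the cell surface, was called lower in C3 (−0.88 ± 0.31, adjusted p = 0.0477) and stood at −0.72 ± 0.30 in C6 (adjusted p = 0.0644). The BST2 call was lost without C3 replicate 1, either scramble library or either C6 library, and with DESeq2.

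Among the IFI genes and XAF1, IFI35 and IFI6 moved in opposite directions in C6, while the adjusted p in C3 ran from 0.119 to 0.696. IFI35, which encodes a leucine zipper protein induced by interferon, had 5.7 and 5.9 CPM in C6, 2.84 and 2.7 CPM in C3, and 3.53 and 2.61 CPM in scramble. C6 stood above the other 4 libraries, which overlapped. IFI35 rose in C6 by 0.92 ± 0.22 (adjusted p = 0.00288). IFI6, a mitochondrial and endoplasmic reticulum protein with anti-apoptotic activity, had 7.29 and 5.68 CPM in C6, 13.2 and 15.6 CPM in C3, and 12.9 and 8.71 CPM in scramble. C6 was lowest and C3 highest, though scramble replicate 1 reached nearly to C3. IFI6 fell in C6 by 0.74 ± 0.19 (adjusted p = 0.00718), a call lost without C6 replicate 2 (0.0724) or scramble replicate 1 (0.112). XAF1, a pro-apoptotic antagonist of XIAP, had 0 and 0.431 CPM in C6, 0.0968 and 0.32 CPM in C3, and 0.557 and 0.931 CPM in scramble. All knockdown libraries lay below scramble, at levels of a few counts, and XAF1 was called in neither line (adjusted p = 0.14 in C6 and 0.172 in C3). IFI27 had 0.304 and 0.431 CPM in C6, 0.161 and 0 CPM in C3, and 0.446 and 0 CPM in scramble, so the scramble libraries spanned its range. IFI44 had 6 counts in C6 replicate 1 and 0 elsewhere, and IFI44L was at 0 in all 6 libraries.

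The PARP members encode ADP-ribosyltransferases or relatives of them, and DTX3L is the ubiquitin ligase that pairs with PARP9. DTX3L, PARP9 and PARP14 lie close together on chromosome 3. DTX3L had 69.7 and 74.4 CPM in C6, 49.1 and 47.5 CPM in C3, and 64.3 and 70.2 CPM in scramble. C6 overlapped scramble, and C3 was lower. DTX3L fell in C3 by 0.48 ± 0.08 (adjusted p = 2.7e-04), and PARP14, a mono-ADP-ribosyltransferase, fell there by 0.53 ± 0.10 (adjusted p = 7.8e-04). PARP9, the partner of DTX3L, did not follow it: PARP9 fell in C6 by 0.43 ± 0.12 (adjusted p = 0.0106) and stood at −0.11 ± 0.12 in C3. The annotation gives PARP9 and DTX3L 217 exonic bases in common on opposite strands, and the sources used here do not say how such reads were assigned.

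PARP12 rose in C6 by 0.41 ± 0.11 (adjusted p = 0.00816), but its chromosomal neighbours had a median log2 fold change of 0.57 there. With the shift of the neighbours removed, PARP12 stood at −0.16 in C6 (adjusted p = 0.276). PARP10 was called lower in C3 (−0.39 ± 0.13, adjusted p = 0.0431) and stood at 0.32 ± 0.13 in C6 (adjusted p = 0.0557). The PARP10 call in C3 was lost without either C3 library, either C6 library or scramble replicate 1. It was also lost with DESeq2 and with the neighbours' shift removed. The PARP9 call in C6 was lost without C6 replicate 1 or scramble replicate 1, with DESeq2, and with the neighbours' shift removed. The PARP12 call in C6 was also lost without C6 replicate 2 or scramble replicate 1, and with DESeq2.

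SP110, a nuclear body protein, was lower in both lines, and the tripartite motif (TRIM) genes moved little. SP110 (chr2:230165186-230225636) had 4.86 and 6.87 CPM in C6, 6.49 and 6.44 CPM in C3, and 11.9 and 11.7 CPM in scramble. The knockdown libraries lay together, all under scramble. SP110 fell by 1.00 ± 0.16 in C6 (adjusted p = 1.5e-04) and by 0.87 ± 0.16 in C3 (adjusted p = 0.00107), while the median of its neighbours in C6 was −0.34. It shares 170 exonic bases with SP140 on the opposite strand. TRIM21, a cytosolic antibody receptor and ubiquitin ligase, was called higher in C6 (0.32 ± 0.12, adjusted p = 0.04). This call was lost without C6 replicate 1 or either scramble library. It was also lost with upper-quartile scaling, with DESeq2 and with the neighbours' shift removed. TRIM14, an adaptor of antiviral signalling at mitochondria, was called in neither line, at −0.08 ± 0.07 in C6 and 0.11 ± 0.07 in C3. TRIM22 was at 0 in all libraries.

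Of the other effectors, ISG20 and SAMD9 followed the course of IFIH1. ISG20, an exonuclease that degrades viral RNA, had 19.4 and 20.5 CPM in C6, 8.1 and 7.4 CPM in C3, and 12.1 and 11.7 CPM in scramble. SAMD9, a cytosolic restriction factor of poxviruses, had 19.9 and 20.3 CPM in C6, 8.23 and 7.97 CPM in C3, and 13.2 and 14 CPM in scramble. In both genes the 3 groups were separate, C6 highest and C3 lowest. ISG20 rose by 0.74 ± 0.11 in C6 (adjusted p = 7.4e-05) and fell by 0.62 ± 0.12 in C3 (adjusted p = 0.00151). SAMD9 rose by 0.57 ± 0.11 in C6 (adjusted p = 5.4e-04) and fell by 0.74 ± 0.12 in C3 (adjusted p = 2.3e-04). The neighbours of SAMD9 had a median of 0.34 in C6, and with their shift removed SAMD9 stood at 0.23 there (adjusted p = 0.105). LGALS3BP, a secreted galectin-3 binding glycoprotein, had 297 and 303 CPM in C6, 384 and 376 CPM in C3, and 296 and 281 CPM in scramble. It rose in C3 alone, by 0.40 ± 0.06 (adjusted p = 1.1e-04). EPSTI1, a gene first described in the crosstalk of epithelium and stroma, had 0.722 and 0.683 CPM in C6, 0.291 and 0 CPM in C3, and 0 and 0.298 CPM in scramble. C6 was highest at these low counts, and EPSTI1 was called in neither line. CMPK2, a mitochondrial nucleotide kinase, was at 0 throughout.

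The APOL genes on chromosome 22 gave the largest change of the members. APOL6 (chr22:35648446-35668404), a protein with a BH3-like domain that can induce apoptosis when overexpressed, had 30.8 and 33.5 CPM in C6, 1.19 and 0.961 CPM in C3, and 2.38 and 2.87 CPM in scramble. C6 stood far above scramble, and C3 lay below it. APOL6 rose 12.2-fold in C6 (log2 fold change 3.61 ± 0.15, adjusted p = 1.4e-10) and fell by 1.27 ± 0.21 on the log2 scale in C3 (adjusted p = 4.4e-04). APOL2 rose in C6 by 0.58 ± 0.13 (adjusted p = 0.00151) and stood at 0.16 ± 0.13 in C3. APOL1, a secreted serum protein that lyses trypanosomes, had 0 and 0.216 CPM in C6, 0 CPM in both C3 libraries, and 0.743 and 0.596 CPM in scramble. All knockdown libraries lay below scramble, at 6 counts in 1 library and 0 in the other 3. Against a floor of 3 counts per library, APOL1 was at least 6.57-fold lower in C3 (adjusted p = 0.00721). It was called in C6 as well (−2.55 ± 1.00, adjusted p = 0.0482). The C6 call was lost without either C3 library, C6 replicate 1 or either scramble library. That call was also lost with DESeq2, with no low-count filter and with a replicate block. The C3 call was lost without scramble replicate 1 or 2.

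APOL3 had 0.532 and 0.252 CPM in C6, 0.258 and 0.213 CPM in C3, and 0.966 and 0.856 CPM in scramble. APOL3 lay below scramble in all 4 knockdown libraries and was called in C3 (−1.93 ± 0.64, adjusted p = 0.0398). This call was lost without either C3 library, C6 replicate 1 or either scramble library. It was also lost with DESeq2, with no low-count filter and with a replicate block. The log2 fold change of APOL3 in C6 was −1.22 ± 0.61 (adjusted p = 0.114). Within the family, then, APOL2 and APOL6 were highest in C6, while APOL1 and APOL3 were highest in scramble. The median of APOL1, APOL2, APOL3 and APOL6 in C3, with APOL1 at its bound, was −1.60.

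Set directly against each other, the knockdown lines differed in 27 of the 43 tested members, 21 higher in C6 and 6 lower. Over all tested genes 49.2% were called in this comparison (25.1% higher and 24.1% lower), against 62.8% of the tested members (48.8% higher and 14% lower). The median log2 difference of the members, C6 minus C3, was 0.42, against 0.00 over all tested genes. Both C6 libraries lay above both C3 libraries for 25 members and below them for 10, against 37.5% and 36.6% of all tested genes. APOL6 had the largest difference, 4.89 ± 0.16 or 29.6-fold (adjusted p = 1.1e-11), followed by IFIH1 at 3.04 ± 0.13 or 8.21-fold (adjusted p = 1.9e-10). OASL differed by 2.09 ± 0.32, ISG20 by 1.36 ± 0.12, SAMD9 by 1.31 ± 0.11, IRF7 by 1.15 ± 0.15 and ISG15 by 0.80 ± 0.10. The 6 members lower in C6 were IFIT1, IFI6, MX1, LGALS3BP, PARP9 and TRIM14. Of these, IFI6 (−1.15 ± 0.19, adjusted p = 2.5e-04) and LGALS3BP (−0.34 ± 0.06, adjusted p = 1.4e-04) kept their call whichever library was left out. The count of lower members was 2 without C3 replicate 1, 2 without C6 replicate 1 and 3 without scramble replicate 1.

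IFITM3, STAT2, SP110, USP18, UBE2L6 and APOL1, the members lower in both lines, were not called between the lines. Their log2 differences ran from −0.68 ± 0.28 for UBE2L6 (adjusted p = 0.0576) to 0.21 ± 0.10 for IFITM3 (adjusted p = 0.0825), leaving out APOL1, where most libraries had no count. IRF1 and ISG15, higher in both, were each higher in C6 than in C3, by 0.36 ± 0.07 for IRF1 (adjusted p = 4.4e-04) and by 0.80 ± 0.10 for ISG15 (adjusted p = 1.4e-05). The higher level of many members in C6 went along with summed immune marker levels above those of C3 and scramble. The lymphocyte marker CD2 stood at 2.09 and 1.83 CPM in C6 and at 0 in the other 4 libraries, while PTPRC, which marks all leukocytes, was at 0 in each library. The summed epithelial markers were lowest in C3, the line in which most called members were lower. Single markers did not all follow the sum. EPCAM was lowest in C6, at 303 and 273 CPM, against 307 and 321 CPM in C3 and 428 and 389 CPM in scramble. Of 13 tested epithelial markers, 9 were called higher in C6 than in C3 and 1 lower. These shares were 69.2% and 7.69%, against 25.1% and 24.1% of all tested genes. The part of these markers in the members' changes was not tested.

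**Figure D4:**
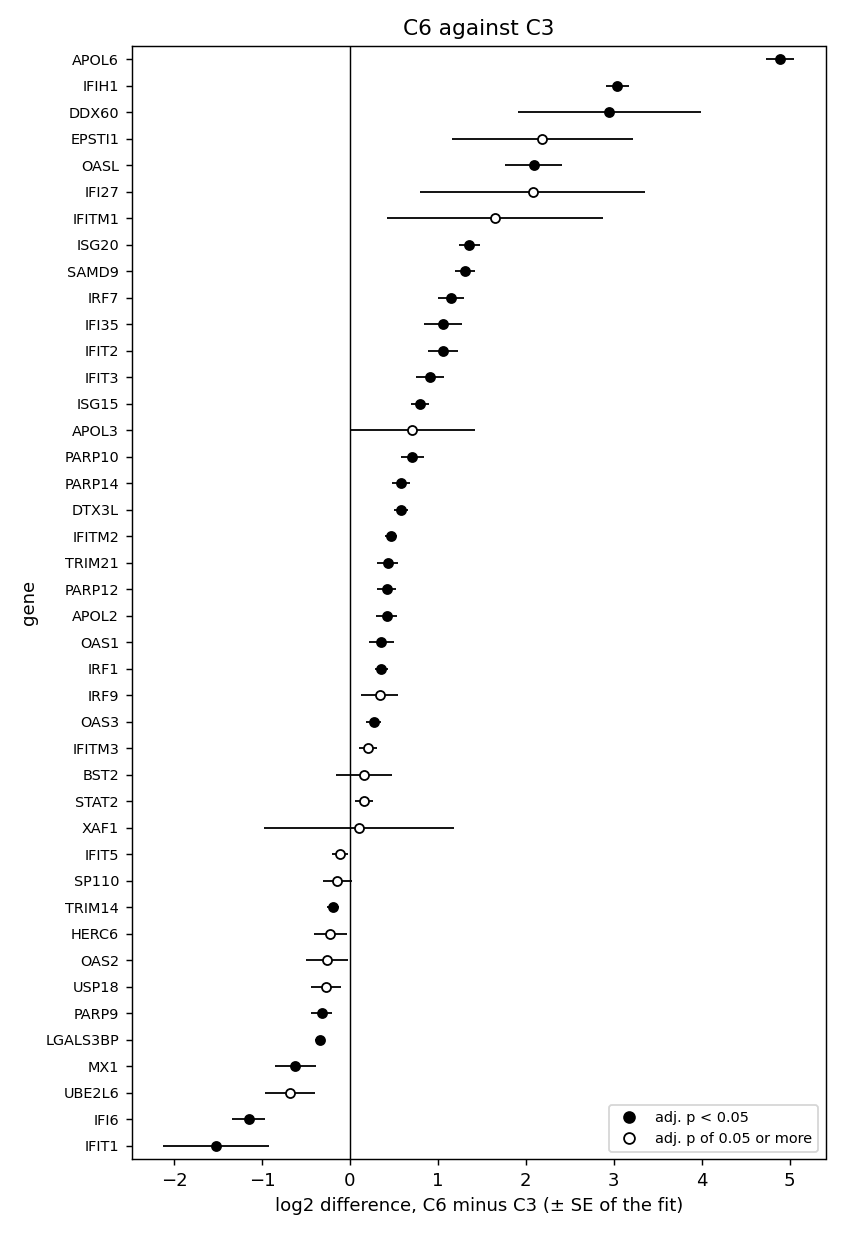
Log2 difference, C6 minus C3 (x axis, with SE of the fit), of 42 tested members in order of size, filled where the adjusted p is under 0.05, with APOL1 left out because both C3 libraries had no count. Most filled points lie to the right of 0, led by APOL6 at 4.89 and IFIH1 at 3.04.

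Averaged over both lines, 6 members were higher and 16 lower than in scramble, 51.2% of those tested, against 32.9% of all tested genes (16.6% higher and 16.3% lower). The 3 smallest adjusted p-values among the lower members belonged to IFITM3 (−1.09 ± 0.08, adjusted p = 7.4e-08), UBE2L6 (−1.62 ± 0.22, adjusted p = 4.0e-05) and SP110 (−0.94 ± 0.14, adjusted p = 1.0e-04). APOL6 was called higher in this average (1.17 ± 0.16) although it was lower in C3, since its rise in C6 was the larger of the pair, and IFIH1, ISG20 and SAMD9 were not called in it. The count of lower members was 8 without scramble replicate 2 and 10 without scramble replicate 1. With the 4 knockdown libraries as 1 group, only IFITM3 was called. Upper-quartile scaling turned the split of all called genes in this average to 37.2% higher, against 50.5% with TMM, and left the members at 6 higher and 17 lower.

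Other genes of the pathway, taken from lists that hold none of the members, had more higher than lower calls in C6 and more lower than higher calls in C3. Of 69 tested, 26 were higher and 13 lower in C6 (37.7% and 18.8%, against 23.8% and 22.8% of all tested genes), and 7 were higher and 18 lower in C3 (10.1% and 26.1%, against 12.4% and 11.9%). Between the lines 35 were higher and 11 lower in C6 than in C3 (50.7% and 15.9%, against 25.1% and 24.1% of all tested genes). These lists, like the members, were chosen with earlier results of these data known, so they are no independent check on the members. Upper-quartile scaling gave 19 higher and 15 lower in C6. Without scramble replicate 2, 25 in place of 39 were called in C6. The 7 higher in C3 came to 3 or 4 without either C3 or either scramble library, the 26 higher in C6 to between 14 and 16 without C6 replicate 2 or either scramble library, and the 11 lower between the lines to 7 without C3 replicate 1 or C6 replicate 1. Of 15 interferon genes listed, 13 were at 0 in every library, IFNB1, IFNG and the interferon-λ genes among them. IFNE, an interferon of epithelia, was the only one high enough to test. IFNE had 0.987 and 1.29 CPM in C6, 0.516 and 0.213 CPM in C3, and 0.409 and 0.67 CPM in scramble. C6 lay above the other 4 libraries, but IFNE was not called in C6 against scramble (1.08 ± 0.56, adjusted p = 0.131). At these low levels it was called higher in C6 than in C3 (1.62 ± 0.58, adjusted p = 0.0313).

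Of 16 receptor and JAK-STAT genes, 7 were higher and 2 lower in C6, and 2 were called in C3, both lower. Their called share was 56.2% in C6 and 12.5% in C3, against 46.7% and 24.3% of all tested genes. IFNGR1, the ligand-binding chain of the interferon-γ receptor, fell in C3 by 0.51 ± 0.08 (adjusted p = 2.3e-04), and IFNLR1, the specific chain of the interferon-λ receptor, fell in C6 by 1.15 ± 0.21 (adjusted p = 3.4e-04). Of 18 tested sensors and adaptors, 4 were higher and 2 lower in C6, and 1 was higher and 4 lower in C3, a called share of 33.3% in C6 and 27.8% in C3, which is below and near that of all tested genes. TLR3, the endosomal receptor of double-stranded RNA, fell in both lines, by 1.30 ± 0.18 in C6 (adjusted p = 2.7e-05) and by 2.00 ± 0.19 in C3 (adjusted p = 1.8e-06). EIF2AK2, the RNA-activated kinase PKR, fell in C6 by 0.37 ± 0.07 (adjusted p = 5.6e-04). Of 40 other tested interferon-stimulated genes, 16 were higher and 11 lower in C6 (40% and 27.5%, against 23.8% and 22.8% of all tested genes), and 7 were higher and 12 lower in C3 (17.5% and 30%, against 12.4% and 11.9%). SLFN5 was lower in both lines, with log2 fold changes of −0.80 ± 0.11 in C6 (adjusted p = 2.2e-05) and −1.73 ± 0.11 in C3 (adjusted p = 4.0e-08). ZNFX1, a helicase that senses RNA at mitochondria, rose in both, by 1.00 ± 0.09 in C6 (adjusted p = 8.1e-07) and by 0.44 ± 0.09 in C3 (adjusted p = 0.00303). HELZ2 rose in C6 alone, by 1.20 ± 0.10 (adjusted p = 1.6e-07).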

How the data were processed

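Poly(A) RNA from 6 SW620 libraries was sequenced as paired ends after a stranded preparation, per the labels' protocols. The authors deposited 1 table of whole-number counts per gene, unscaled, as its header and values show. The submitters' processing notes name StringTie 2.1.3b, HISAT2 2.1.0, Trimmomatic 0.38 and DESeq2, and build hg38. The sources used here do not say how reads were assigned to genes, shared or antisense reads included.

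Libraries were grouped by title. The counts were tested with the quasi-likelihood test of edgeR 4.0.16 in R 4.3.3 (robust, TMM, filterByExpr), with all 6 libraries as 3 groups and 3 residual degrees of freedom. Benjamini-Hochberg adjustment ran over all 13299 genes tested, and 0.05 was the threshold. The fit was tested on simulated data. Alternatives were scaling by RLE or by the upper quartile, a filter of 1 CPM in 2 libraries or none, DESeq2 1.42.0, a replicate block, the knockdown libraries as 1 group, removal of the running median of 51 neighbouring genes, and leaving out each library. Positions come from RefSeq GRCh38.p14, which matched 19448 genes. Shared 100-base stretches, exonic overlaps and transcript lengths come from GENCODE.

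The members and all lists were chosen with earlier results of these data known. Values in every library were printed for members called with the same sign in both lines, with opposite signs, or past a 2-fold change in any comparison. DKC1 and any member could be named, and from each other list up to 4 tested genes with the smallest p in the average of both lines. A result that this rule selected is not reported here. The levels by library of DTX3L, IFITM2 and LGALS3BP, the comparison of levels per kilobase and the promoters of members with opposite signs were chosen after their values were seen.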

Additional observations from a re-analysis of the deposited data

Results flagged for a closer look

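Levels differed between the C6 and C3 lines in 27 tested members, by the test of the difference itself. That was edgeR's quasi-likelihood test, adjusted over all tested genes, of which 49.2% passed it. The design cannot tell the depth of knockdown apart from other differences between the lines. Log2 differences, C6 minus C3, of the largest size were 4.89 for APOL6, 3.04 for IFIH1, 2.95 for DDX60, 2.09 for OASL, 1.36 for ISG20, 1.31 for SAMD9, 1.15 for IRF7, 1.06 for IFIT2 and 1.06 for IFI35. Those of intermediate size were 0.91 for IFIT3, 0.80 for ISG15, 0.71 for PARP10, 0.58 for PARP14, 0.58 for DTX3L and 0.47 for IFITM2. The smaller ones were 0.43 for TRIM21, 0.42 for PARP12, 0.42 for APOL2, 0.36 for IRF1, 0.36 for OAS1 and 0.27 for OAS3. The negative differences were −1.52 for IFIT1, −1.15 for IFI6, −0.62 for MX1, −0.34 for LGALS3BP, −0.32 for PARP9 and −0.19 for TRIM14. The calls of DDX60, IFIT1, OAS1, OAS3, MX1, PARP9, PARP12, TRIM14, TRIM21 and APOL2 were each lost when at least 1 library was left out (adjusted p between 0.0528 and 0.517). Removing the neighbours' shift ended the calls of IFIT1 (−1.45), PARP9 (−0.23), PARP12 (0.18), TRIM14 (0.01) and TRIM21 (0.28), with the log2 difference then left in parentheses.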

How the results depend on the processing

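Of 96 calls of a member in a comparison, 47 held under every alternative and 49 were lost under at least 1. RLE scaling lost none, upper-quartile scaling 3, DESeq2 29 and removal of the neighbours' shift 14, beside 2 that reversed: PARP12 in C6 at −0.16 and TRIM14 between the lines at 0.01.

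With DESeq2, 7 members were lower in C6, 13 were called in the average of both lines (9 lower), 2 were lower in C6 than in C3, and 25 other pathway genes were called in C6. With the knockdown libraries as 1 group, 1 member was called by edgeR, 0 higher and 1 lower (2 and 12 at an unadjusted p under 0.05), and 0 other pathway genes (3 higher and 8 lower unadjusted). The replicate numbers did not pair the samples: same-numbered deviations correlated at 0.064 for C6 with scramble, −0.047 for C3 with scramble and 0.025 for C6 with C3. With the replicate block, 89 of 96 calls held (APOL1 in C6 and APOL3 in C3 among the 7 lost, at adjusted p = 0.0624 and 0.0602) and 3 members were lower in C6 than in C3, as with the neighbours' shift removed, where 3 were.

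Leaving out each library in turn gave called members of 20 to 24 in C6 (13 to 14 higher, 7 to 10 lower), 15 to 18 in C3 (1 to 4 higher, 13 to 16 lower), 12 to 21 in the average (4 to 7 higher, 8 to 16 lower) and 21 to 24 between C6 and C3 (17 to 20 higher, 2 to 4 lower). For the other pathway genes the ranges were 25 to 39 in C6 (14 to 26 higher, 10 to 13 lower), 18 to 24 in C3 (3 to 6 higher, 15 to 18 lower), 18 to 28 in the average (7 to 11 higher, 11 to 17 lower) and 36 to 44 between C6 and C3 (29 to 33 higher, 7 to 11 lower).

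Depth limits the members at about 1 CPM or less: 6 could not be tested, and APOL1, APOL3, DDX60, EPSTI1, IFI27, IFIT1, IFITM1 and XAF1 rest on few counts. With 2 libraries a group, the spread between independently made lines of 1 hairpin is not measured.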
